A study of Homo sapiens with 3 samples.

Results

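Described here are the genes of a 40 Mb stretch of the short arm of chromosome 3 in H1975 lung cancer cells and in OR1 and OR2, the osimertinib-resistant lines derived from them. The stretch runs from 20 to 60 Mb of hg19, the genome build of the array's probe positions. A gene belonged to it when its brightest probe lay there and was well above background, as called by the scanner software, on at least 1 array. Of 567 gene names with a probe in the stretch, 341 were members and 226 had no probe well above background. The whole series held 22439 genes by the same rule. The stretch was chosen by its ratios of OR1 and OR2 to H1975 in these same arrays, so its shift as a whole is given as a description, with no test.

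The short arm of chromosome 3 is among the chromosome arms that lose DNA most often in lung cancer. Its gene-dense bands carry several tumour suppressors and candidates, among them RASSF1, BAP1, PBRM1, SETD2, SEMA3B and SEMA3F. The same stretch holds CTNNB1, which encodes β-catenin, and CDCP1, a membranous glycoprotein that is phosphorylated by SRC family kinases. RNA arrays report the transcripts of these genes and do not measure DNA.

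H1975 is a non-small cell lung cancer line with mutated EGFR that is sensitive to osimertinib, an inhibitor of mutated EGFR. OR1 and OR2 were selected from separate flasks of H1975 in stepwise doses of osimertinib that reached 2 μmol/L over 4 months. The methods call each resistant line a clone, and all lines were grown in the same serum-supplemented RPMI medium. RNA of each line was hybridized to 1 Agilent single-color array, with all 3 arrays on 1 slide. The study compared each resistant line with the parental line to find what accompanies acquired resistance.

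The intensity of a spot is its brightness after background correction by the scanner software. A ratio is the intensity in OR1 or OR2 over that in H1975, after division of each array by its 75th percentile, which was 157 in H1975, 138 for OR1 and 162 for OR2. Where 1 line of a pair had no signal well above background, that line was given the dimmest intensity the software called well above background (or its own, if brighter), so that its ratio is a bound, marked by "at least" or "at most". A technical SD for each log2 ratio, propagated from the software's error of each spot, had a median of 0.20 over the members in each line. It covers a single RNA sample, not the spread between cultures, which 1 array per line cannot give. Ratios are therefore given without p-values, precision is limited by the number of arrays, and both ratios of a gene share the H1975 array. All 6 epithelial markers examined were well above background in every line, although the summed intensity of the list was 390544 in H1975, 147897 for OR1 and 172181 for OR2. Of the lung epithelial markers, 3 of 6 were above background in each line, and SFTPA1, SFTPB and SLC34A2 were not. Markers of other cell types above background were 2, 3 and 1 of 7 for fibroblasts in H1975, OR1 and OR2, and in each line 2 of 4 haematopoietic and 3 of 4 endothelial genes. The summed intensity in H1975, OR1 and OR2 was 675, 687 and 107.3 for fibroblast genes, 291, 1012 and 1806 for haematopoietic genes, almost all of it CD14, and 92.2, 101 and 107.1 for endothelial genes. Fewer cells with a transcript and less of it per cell cannot be told apart in such bulk RNA. The part of these marker levels in the results was not tested.

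The starts of 6 members are shown, because these genes had some of the largest ratios of the stretch in each direction. CDCP1, SEMA3F, KAT2B and LAMB2 were higher in both resistant lines, and FAM107A and WNT5A were lower. Each line gives the 250 bases before the annotated transcript start, 5′ to 3′ on the gene's strand, from RefSeq on GRCh38.p14. These positions are on another build than the probe positions and are not converted.
CDCP1: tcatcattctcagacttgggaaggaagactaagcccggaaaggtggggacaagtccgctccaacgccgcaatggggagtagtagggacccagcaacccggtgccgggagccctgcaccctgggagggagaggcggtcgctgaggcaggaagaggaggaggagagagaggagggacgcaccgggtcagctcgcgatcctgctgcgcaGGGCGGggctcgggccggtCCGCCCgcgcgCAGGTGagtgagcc
SEMA3F: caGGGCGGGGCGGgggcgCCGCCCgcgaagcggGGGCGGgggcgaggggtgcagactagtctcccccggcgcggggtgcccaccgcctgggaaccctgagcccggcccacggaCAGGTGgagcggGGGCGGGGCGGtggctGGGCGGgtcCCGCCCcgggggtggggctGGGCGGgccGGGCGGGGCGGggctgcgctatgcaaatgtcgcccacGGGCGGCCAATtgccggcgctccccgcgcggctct
KAT2B: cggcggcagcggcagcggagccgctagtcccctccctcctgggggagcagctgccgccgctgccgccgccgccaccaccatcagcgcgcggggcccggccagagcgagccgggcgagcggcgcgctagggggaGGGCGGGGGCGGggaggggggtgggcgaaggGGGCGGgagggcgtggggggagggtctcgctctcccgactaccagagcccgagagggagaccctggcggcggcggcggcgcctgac
LAMB2: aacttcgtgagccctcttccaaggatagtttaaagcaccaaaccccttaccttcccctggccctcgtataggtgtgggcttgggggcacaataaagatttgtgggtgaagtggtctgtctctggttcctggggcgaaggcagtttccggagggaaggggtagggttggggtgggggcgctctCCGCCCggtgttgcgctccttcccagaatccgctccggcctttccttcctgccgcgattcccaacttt
FAM107A: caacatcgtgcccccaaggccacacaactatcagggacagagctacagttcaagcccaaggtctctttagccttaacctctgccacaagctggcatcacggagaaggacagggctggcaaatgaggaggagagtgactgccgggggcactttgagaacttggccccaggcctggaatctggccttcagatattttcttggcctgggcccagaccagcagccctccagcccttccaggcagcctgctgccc
WNT5A: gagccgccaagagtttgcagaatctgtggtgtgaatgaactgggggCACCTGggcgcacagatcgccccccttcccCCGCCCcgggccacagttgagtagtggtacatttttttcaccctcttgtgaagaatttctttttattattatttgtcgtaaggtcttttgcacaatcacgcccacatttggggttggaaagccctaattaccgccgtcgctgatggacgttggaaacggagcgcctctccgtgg
The sequences lie at chr3:45146379-45146628 on the minus strand for CDCP1, chr3:50154808-50155057 on the plus strand for SEMA3F, chr3:20040196-20040445 on the plus strand for KAT2B, chr3:49133051-49133300 on the minus strand for LAMB2, chr3:58627611-58627860 on the minus strand for FAM107A and chr3:55487307-55487556 on the minus strand for WNT5A. Capitals mark matches, on either strand, to the GC box GGGCGG, the E-box CACCTG, the AP-1 motif TGANTCA, the TEAD motif CATTCC, the CCAAT box CCAAT and the TATA box TATAAA, and matches may overlap. SEMA3F held 12 GC boxes, KAT2B 3, CDCP1 2, and LAMB2 and WNT5A 1 each. No motif was matched in FAM107A, which had 3 CpG dinucleotides against 34 in SEMA3F and 20 in CDCP1. A GC box was present in 64.7% of the 238 members with a sequence on chromosome 3 and in 42.3% of 27305 promoters of all genes. It was present in 16 of 30 such members with a ratio of at least 2 in both lines and in 5 of 9 with a ratio of at most 0.5 in both. The AP-1 motif was found in 7 of the 238 members (2.94%) and in 6.60% of all promoters. For the E-box the shares were 16.8% and 17.5%, for the TEAD motif 12.6% and 11.9%, for the CCAAT box 31.9% and 33.0%, and for the TATA box 3.78% and 11.1%. The members' promoters had a median GC content of 65.6%, against 58.0% over all promoters. All promoters were taken whether or not the gene had signal on the arrays, whereas the members had passed that filter. The part of the filter in these differences was not tested. A match describes the letters and is not evidence of binding.

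Most genes of the stretch were modestly higher in both resistant lines than in H1975, except that with spike-in scaling most were lower in OR1. Over the 299 members measured on both arrays the median log2 ratio was 0.45 in OR1, a ratio of 1.37, with an interquartile range of 0.08 to 0.78. In OR2 it was 0.44 over 301 members, a ratio of 1.36, with an interquartile range of 0.00 to 0.78. The same median over all genes was 0.03 for OR1 and -0.06 for OR2. When the arrays were scaled on 7 spike-in probes instead, the median of all genes was -0.56 for OR1 and 0.02 for OR2, and that of the members was -0.14 for OR1 and 0.52 for OR2. The members thus turned below 0 in OR1 together with the whole array. They stood 0.42 above all genes in OR1 and 0.50 in OR2 under either scaling. Division of each array by 1 factor cannot change this difference, so its sameness is no support.

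Of the 298 members well above background on all 3 arrays, 210 (70.5%) had a ratio above 1 in both lines, against 38.2% of all such genes. A ratio below 1 in both lines was found in 43 (14.4%), against 39.8% of all genes. Most of the higher members changed little, since 156 of them had ratios between 1 and 2 in both lines. With spike-in scaling the share above 1 in both lines was 39.9%. The same share of all genes was not computed with that scaling, so 38.2% is not its background. In OR1 the log2 ratio exceeded its technical SD in 244 of the 298 members, and 203 of these were above 1. In OR2 it did so in 233, of which 192 were above 1. These counts beyond the technical SD were not made over all genes, so they show nothing particular to the stretch.

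**Figure D1:**
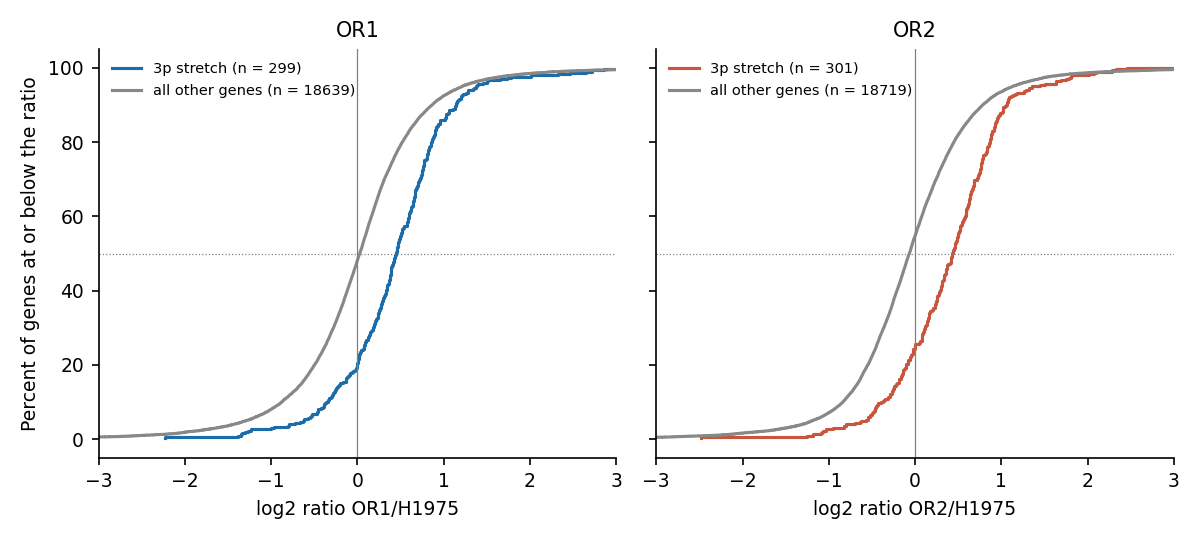
Cumulative share of genes (percent) by log2 ratio to H1975 in OR1 (left) and OR2 (right) for the 3p members measured on both arrays and for all other genes measured on both. The members' curve lies to the right of the other genes' through the middle of the range, crossing 50% at 0.45 for OR1 and 0.44 for OR2. With spike-in scaling the members' median is -0.14 in OR1.

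By the ratios of the methods, 39 members (11.4%) were up-regulated in both lines, that is, well above background in OR1 and OR2 with a ratio of at least 2, against 5.17% of all genes. Down-regulated in both lines, with a ratio of at most 0.5, were 11 members (3.23%), against 6.46% of all genes. In OR1, whatever the value in OR2, 60 members (17.6%) reached 2, against a background of 9.14%, and 14 (4.11%) fell to 0.5 or less, against 9.72%. In OR2, 52 members (15.2%) reached 2, against 7.6%, and 12 (3.52%) fell to 0.5 or less, against 8.42%. No member passed the ratios in opposite directions in the resistant lines. This was not counted over all genes, so it is not a trait particular to the members. A gene dim in H1975 could enter the stretch only through the resistant lines, so the counts were repeated on genes well above background on all 3 arrays. There, 27 of 298 members (9.06%) were up-regulated in both lines, against 4.78%, and 5 (1.68%) were down-regulated, against 4.7%. Since the stretch was chosen from these ratios, the excess over the background is a description of it. The count of up-regulated members was 14 with spike-in scaling and 12 with another background correction (normexp), and normexp left 2 down-regulated members. All genes were not counted under these settings, so 5.17% and 6.46% are not the background of these counts.

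The higher values were spread along the stretch. In the 8 windows of 5 Mb, the median log2 ratio lay between 0.31 and 0.53 in OR1 and between 0.31 and 0.64 in OR2. The lowest medians were at 30 to 35 Mb in both lines, and the highest were at 50 to 55 Mb in OR1 and at 55 to 60 Mb in OR2. Each window held members up-regulated in both lines. Their number ran from 2 of 38 at 35 to 40 Mb to 15 of 104 at 45 to 50 Mb. The 2 of 38, and the 5 of 78 at 50 to 55 Mb, were near the 5.17% of all genes. The largest shares, 3 of 13 at 20 to 25 Mb and 3 of 12 at 25 to 30 Mb, rest mostly on bounds. These were THRB, THRB-AS1, RBMS3 and RBMS3-AS3. Under spike-in scaling all 8 medians were below 0 in OR1, from -0.28 to -0.07.

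**Figure D2:**
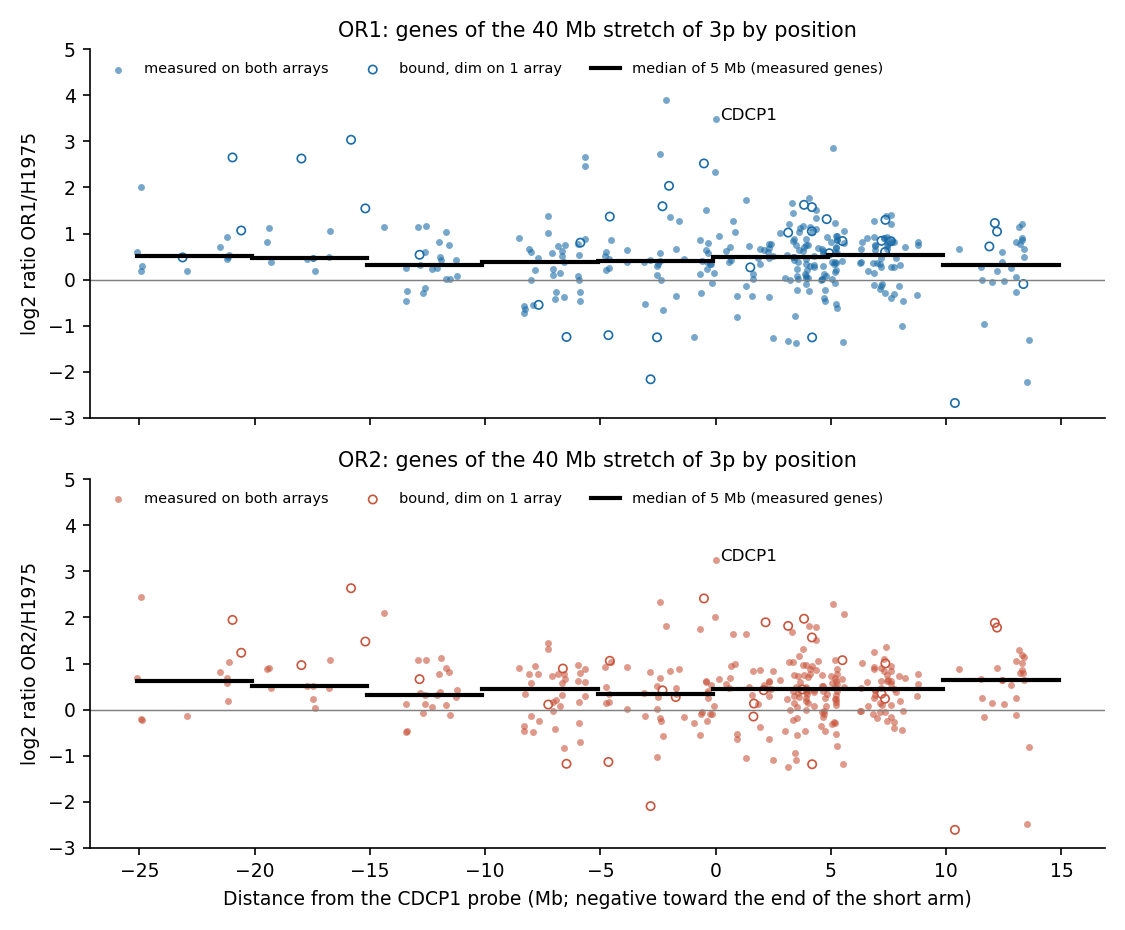
Log2 ratio to H1975 of each member against the distance of its probe from the CDCP1 probe (Mb), in OR1 (top) and OR2 (bottom). Filled points were measured on both arrays, open points are bounds, and bars are the medians of measured genes in 5 Mb, which lie from 0.31 to 0.53 in OR1 and from 0.31 to 0.64 in OR2, or below 0 in OR1 with spike-in scaling.

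The rest of chromosome 3 lay between the stretch and the pooled genes of the other chromosomes. On the remaining short arm, 18 of 195 genes (9.23%) were up-regulated in both lines and 57.9% of those on all 3 arrays were above 1 in both, and on the long arm these shares were 6.47% and 48.2%. The median log2 ratio on the rest of the short arm was 0.24 for OR1 and 0.25 for OR2, and on the long arm 0.11 in each. The 21 long-arm windows of 5 Mb from 95 to 200 Mb ranged from -0.27 to 0.54 in OR1 and from -0.33 to 0.51 in OR2. Among whole chromosomes other than 3, medians ran from -0.54 for OR1 and -0.36 for OR2 on chromosome 7 to 0.38 and 0.17 on chromosome 11. The members' median of 0.45 for OR1 and 0.44 for OR2 was above that range, although a stretch of 40 Mb picked for its ratios is not comparable to a whole chromosome. The limits of 20 and 60 Mb did not mark a step. The window just before, at 15 to 20 Mb, had a median of 0.32 for OR1 and 0.53 for OR2, and the windows just after had 0.35 and 0.20 at 60 to 65 Mb and 0.55 and 0.84 at 65 to 70 Mb. The first member by position was RAB5A, a GTPase of early endosomes, with a ratio of 1.51 for OR1 and 1.61 for OR2, and the last was C3orf67, with 0.406 for OR1 and 0.567 for OR2. Outside the limits, EFHB, a gene with no ratio in OR1, was at least 1.46 in OR2, and the unnamed probe before it had 0.580 and 0.840. Past 60 Mb, the transcript ENST00000496953 had 0.652 and 0.657 and PTPRG, a receptor tyrosine phosphatase, at least 5.01 and at least 7.13.

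**Figure D3:**
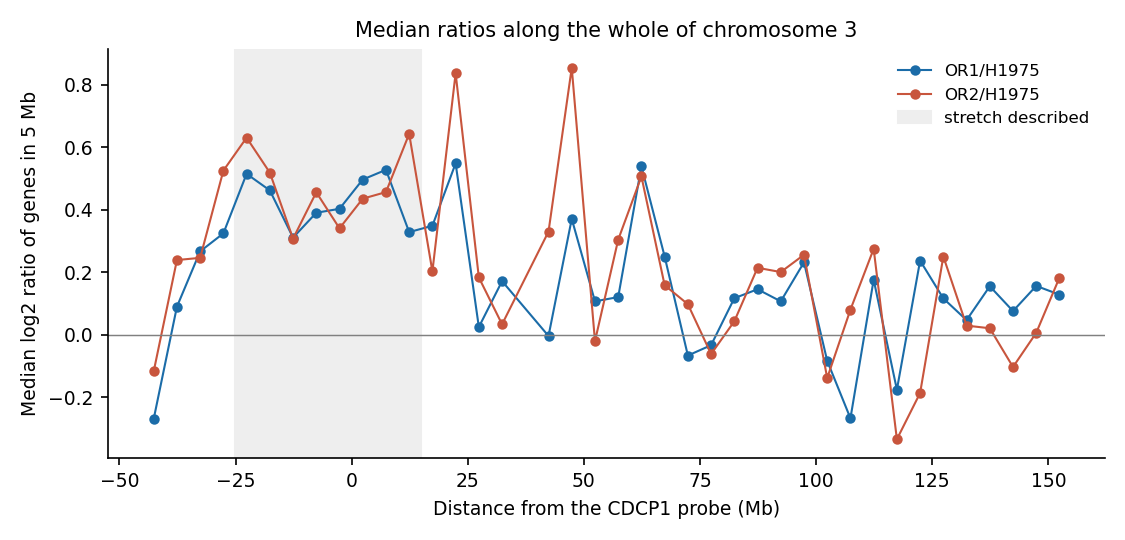
Median log2 ratio to H1975 of genes in windows of 5 Mb along chromosome 3, against distance from the CDCP1 probe (Mb), for windows with at least 5 measured genes. The shaded part is the stretch described, where both lines lie between 0.31 and 0.64, and the long arm is to the right. With spike-in scaling the 8 shaded medians of OR1 lie from -0.28 to -0.07.

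Ranked by the less changed line, CDCP1 had the largest ratio of the members measured on all 3 arrays. Its intensity was 51.1 in H1975 against 506 for OR1 and 501 for OR2, so that both resistant lines lay far above the parental line and close to each other. The ratio was 11.3 for OR1 and 9.54 for OR2, and the technical SD of its log2 value in OR1 was 0.22. With normexp it was 5.78 and 5.09, and with spike-in scaling 7.47 and 10.1. Its second probe lacked a signal well above background in H1975 and gave at least 7.23 for OR1 and at least 5.43 for OR2. Without CDCP1 the medians of the stretch were 0.45 for OR1 and 0.44 for OR2. The 26 other members within 1 Mb of CDCP1 had medians of 0.41 in both lines. Of the 25 on all 3 arrays, 16 (64.0%) were above 1 in both, against 70.5% over the stretch and 38.2% of all genes. Of the 26 neighbours, 3 were up-regulated in both lines, against 11.4% over the stretch and 5.17% of all genes. CLEC3B was 1 of these 3. It encodes tetranectin, a plasminogen-binding C-type lectin. Its intensity was 48.9 in H1975 against 215 for OR1 and 203 for OR2, a ratio of 5.02 for OR1 and 4.04 for OR2, or 2.72 and 2.28 with normexp.

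Secreted ligands and their receptors included several of the largest ratios in each direction. SEMA3F encodes a secreted semaphorin, a guidance cue that acts through neuropilins. Its intensity was 68.0 in H1975 against 432 for OR1 and 341 for OR2, and its ratio was 7.24 for OR1 and 4.88 for OR2, or 3.98 and 3.03 with normexp. SEMA3B, its neighbour and relative, was less changed, with 1.52 and 1.61. PLXNB1, a plexin receptor for semaphorins, had an intensity of 34.1 in H1975 against 94.3 for OR1 and 113 for OR2 and a ratio of 3.16 for OR1 and 3.23 for OR2. With normexp the PLXNB1 ratio was 1.76 for OR1 and 1.77 for OR2, below the ratio for up-regulated genes. The ligand WNT5A, which drives β-catenin-independent Wnt signaling, was well above background only in H1975. Its intensity was 74.9 in H1975 against 8.65 for OR1 and 2.73 for OR2, a ratio of at most 0.156 for OR1 and at most 0.164 for OR2. CCK, the peptide hormone cholecystokinin, was likewise above background only in H1975, with an intensity of 52.5 in H1975 against 4.46 for OR1 and 5.61 for OR2 and a ratio of at most 0.223 for OR1 and at most 0.234 for OR2. CSPG5, a chondroitin sulfate proteoglycan, had a ratio of 0.415 for OR1 and 0.469 for OR2. All 3 of these falls were smaller with normexp, at 0.544 and 0.490 for WNT5A, 0.707 and 0.644 for CCK and 0.770 and 0.738 for CSPG5, so that none was at or below 0.5 in both lines. Over the 12 members among 13 listed secreted ligands, 3 were up-regulated in both lines (SEMA3F, CLEC3B and CAMP), 3 were down-regulated (CCK, WNT5A and CSPG5), and the median log2 ratio was 0.60 for OR1, or 0.01 with spike-in scaling, and 0.69 for OR2. This median is over the 7 members measured on all 3 arrays, without the bounds of CCK and WNT5A, and each list median below likewise leaves bounds out. Beside the counts of this and each later list, 11.4% of the stretch's members were up-regulated in both lines and 3.23% down-regulated. Over all genes these shares were 5.17% and 6.46%. Above 1 in both lines were 70.5% of members on all 3 arrays and 38.2% of all such genes.

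Among receptors and membrane proteins, 15 of 18 listed were members, of which 3 were up-regulated in both lines and 2 were down-regulated. TGFBR2, the type II receptor of TGF-β, had an intensity of 1066 in H1975 against 2076 for OR1 and 4699.7 for OR2, highest in OR2. Its ratio was 2.22 for OR1 and 4.29 for OR2, and a second probe gave 2.14 and 2.30. With spike-in scaling OR1 was at 1.47, below the ratio for up-regulated genes. ENTPD3, an ectonucleotidase, and VIPR1, a receptor of vasoactive intestinal peptide, were the down-regulated ones, with at most 0.434 and at most 0.455 for ENTPD3 and at most 0.420 and 0.491 for VIPR1. With normexp ENTPD3 had 0.919 and 0.837. MST1R, the RON receptor tyrosine kinase, had 1.06 and 1.05. The list's median log2 ratio was 0.49 in OR1, which turned to -0.10 with spike-in scaling, and 0.66 in OR2. Of 12 chemokine receptor genes on the array, 3 were members. CCRL2, an atypical receptor that binds chemerin, had an intensity of 53.1 in H1975 against 155 for OR1 and 170.1 for OR2 and a ratio of 3.32 for OR1 and 3.12 for OR2. XCR1 had 0.787 and 0.645.

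The tumour suppressors and candidates of the stretch were mostly higher in the resistant lines, as were its members as a whole. Of all members, 11.4% were up-regulated in both lines, and 70.5% of those on all 3 arrays were above 1 in both. Over all genes these shares were 5.17% and 38.2%. Of 27 tumour suppressors and candidates listed, 23 were members, 3 were up-regulated in both lines and 0 were down-regulated, and 18 of the 21 on all 3 arrays were above 1 in both. The list's median log2 ratio was 0.60 for OR1 and 0.59 for OR2, and 0.01 in OR1 with spike-in scaling. The up-regulated ones were SEMA3F, TGFBR2 and THRB. THRB encodes a thyroid hormone receptor and was not well above background in H1975, with an intensity of 7.20 in H1975 against 66.0 for OR1 and 47.4 for OR2 and a ratio of at least 6.29 for OR1 and at least 3.85 for OR2, or 1.82 and 1.42 with normexp. RASSF1, a RAS-association protein whose promoter is often methylated in lung cancer, had an intensity of 1675 in H1975 against 2685 for OR1 and 2516 for OR2 and a ratio of 1.83 for OR1 and 1.46 for OR2. BAP1, a deubiquitinase, had 1.86 and 1.79, PBRM1, a subunit of the PBAF chromatin remodeler, 1.70 and 1.56, and SETD2, the histone H3 lysine methyltransferase, 1.58 and 1.81. The lowest of the list was ZMYND10, a ciliary assembly factor, with an intensity of 143 in H1975 against 82.0 for OR1 and 84.6 for OR2 and a ratio of 0.652 for OR1 and 0.574 for OR2.

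KAT2B led the genes of chromatin, replication and repair. It encodes the histone acetyltransferase PCAF, and its intensity was 59.7 in H1975 against 211 for OR1 and 336 for OR2, a ratio of 4.03 for OR1 and 5.47 for OR2, or 2.44 and 3.09 with normexp and 2.67 for OR1 with spike-in scaling. Of the 19 genes in this list, all of them members, 1 was up-regulated in both lines, 0 were down-regulated and 15 were above 1 in both. The lowest was TRAIP, a ubiquitin ligase of replication forks, with 0.853 and 0.722. The list's median log2 ratio was 0.54 in OR1, or -0.05 with spike-in scaling, and 0.59 in OR2.

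Zinc finger genes held several of the largest ratios. Of 15 on the array, 12 were members and 4 were up-regulated in both lines, with a median log2 ratio of 0.61 for OR1, or 0.02 with spike-in scaling and 0.39 with normexp, and 0.47 for OR2. ZBTB47, a zinc finger protein with a BTB domain, had an intensity of 141 in H1975 against 814 for OR1 and 729 for OR2 and a ratio of 6.60 for OR1 and 5.04 for OR2. ZKSCAN7 was not well above background in H1975, with an intensity of 12.7 in H1975 against 63.7 for OR1 and 69.2 for OR2 and a ratio of at least 5.74 for OR1 and at least 5.32 for OR2. Its second probe gave at least 2.22 and at least 1.19. With normexp ZKSCAN7 had 1.88 and 1.76. ZNF445, a regulator of imprinted genes, was the lowest of the list, with 0.815 and 0.933. Outside the list, KRBOX1, which encodes a KRAB-box protein, had an intensity of 43.9 in H1975 against 578 for OR1 and 158 for OR2. Its ratio was 15.03 for OR1 and 3.51 for OR2, in OR1 the largest of the measured ratios of the stretch. With normexp it was 7.20 and 2.09.

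**Figure D4:**
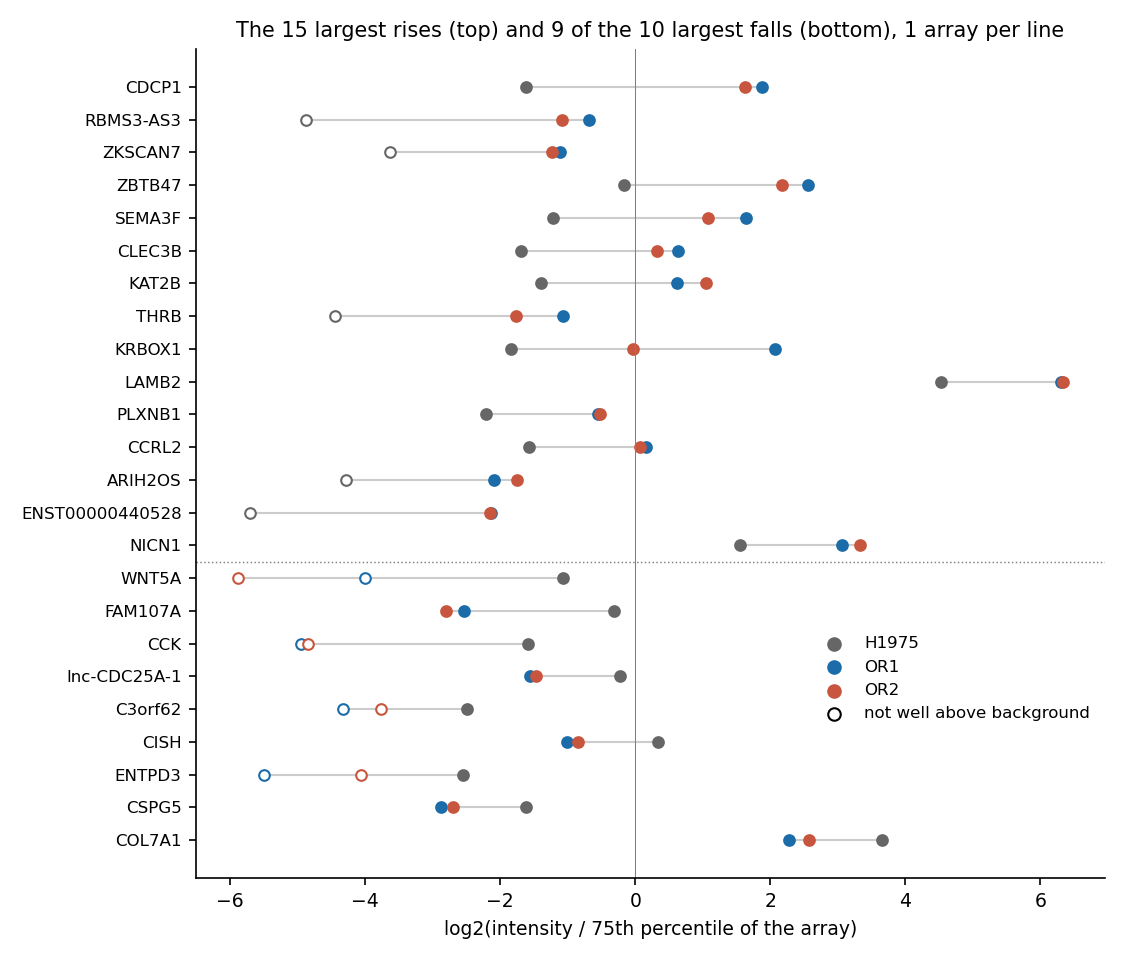
Log2 of intensity over the array's 75th percentile for the 15 members with the largest rise and 9 of the 10 with the largest fall, ranked by the less changed line with bounds at their value. Each point is 1 array of H1975 (grey), OR1 (blue) or OR2 (red), and open points were not well above background. H1975 lies left of both resistant lines in the upper group and right of both in the lower group, a side that every scaling tried left as it was.

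Signaling genes inside the cell included CTNNB1, the study's β-catenin gene. Its intensity was 3624 in H1975 against 4118 for OR1 and 3737 for OR2, a ratio of 1.30 for OR1 and 1.003 for OR2, while spike-in scaling put OR1 at 0.858. A second CTNNB1 probe gave 1.39 and 1.11. By western blot the study found markedly less β-catenin in OR1 and OR2 than in H1975. That is a measure of protein, whereas these ratios are of RNA. Of the 20 listed signaling genes, 19 were members, 2 were up-regulated in both lines, 1 was down-regulated and 14 were above 1 in both. The median log2 ratio of the list was 0.57 in OR1, or -0.03 with spike-in scaling, and 0.48 in OR2. AZI2, an adaptor of TBK1, had 2.09 and 2.11, and IP6K2, an inositol hexakisphosphate kinase, had 2.04 and 2.23. Their second probes were below 2, at 1.32 and 1.78 for AZI2 and 1.79 and 1.83 for IP6K2, and AZI2 also lost the call with spike-in scaling (1.38 for OR1) and normexp (1.85 and 1.93). CISH, an inhibitor induced by STAT5, was down-regulated, with an intensity of 199 in H1975 against 68.4 for OR1 and 90.2 for OR2 and a ratio of 0.391 for OR1 and 0.440 for OR2, or 0.540 and 0.553 with normexp. PRKCD, the δ isoform of protein kinase C, had 0.499 and 0.737, and RHOA, the small GTPase of actin stress fibers, had 1.25 and 1.30, while its other probe gave 0.9996 and 0.673.

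Matrix genes went both ways. LAMB2, the laminin β2 chain, was bright in all 3 lines, with an intensity of 3628 in H1975 against 10940.2 for OR1 and 13128 for OR2 and a ratio of 3.44 for OR1 and 3.52 for OR2, and its second probe gave 3.51 and 3.76. COL7A1, the anchoring fibril collagen, had an intensity of 1980.4 in H1975 against 667 for OR1 and 960.3 for OR2 and a ratio of 0.384 for OR1 and 0.472 for OR2. The 12 members among the 14 matrix and hyaluronan genes on the array had a median of 0.21 on the log2 scale in OR1, or -0.38 with spike-in scaling, and 0.50 in OR2. In the ribosome and translation list 9 of 10 members were above 1 in both lines, and RRP9 was at 1.29 and 0.932. Ranked by the higher of both ratios, the lowest was QARS, the glutaminyl-tRNA synthetase, with 1.02 and 1.11. RPL15, a protein of the large ribosomal subunit and the brightest member, had 1.40 and 1.13 (1.61 and 2.10 by its other probe), and TMA7, a translation machinery protein, 2.74 and 2.05. With spike-in scaling TMA7 was at 1.81 in OR1, and with normexp at 1.99 in OR2. RPL15 fell to 0.928 in OR1 with spike-in scaling. The next brightest members, MAP4 (a microtubule-binding protein) and GPX1 (glutathione peroxidase), had 1.03 and 0.723 and 1.21 and 1.06. The 3 other MAP4 probes were above 1 in both lines, between 1.27 and 1.90.

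The 25 mitochondrial and metabolic genes listed were all members, and 4 of them were up-regulated in both lines. AMT, a subunit of the glycine cleavage system, was the highest, with 2.52 and 2.85 (1.98 and 2.84 by its other probe, and 1.67 for OR1 with spike-in scaling), and SLC25A20, the carnitine-acylcarnitine carrier, had 2.25 and 2.50. PFKFB4, a bifunctional enzyme of fructose 2,6-bisphosphate, was the lowest, with an intensity of 1257 in H1975 against 636 for OR1 and 669.6 for OR2 and a ratio of 0.577 for OR1 and 0.518 for OR2. The list's median log2 ratio was 0.38 in OR1, or -0.22 with spike-in scaling, and 0.30 in OR2. Among 16 members of the cytoskeleton, motor and vesicle list, DYNC1LI1, a dynein light intermediate chain, was the only one up-regulated in both lines, with 2.25 and 2.11, and 11 were above 1 in both. DYNC1LI1 lost the call with spike-in scaling (1.49 for OR1) and with normexp (1.85 and 1.80). Ranked by the higher of both ratios, ZDHHC3, a palmitoyltransferase, was lowest, with 0.946 and 0.932. Its other probe was above 1 in both lines, at 1.07 and 1.19. The list's median was 0.31 in OR1, or -0.28 with spike-in scaling, and 0.58 in OR2.

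**Figure D5:**
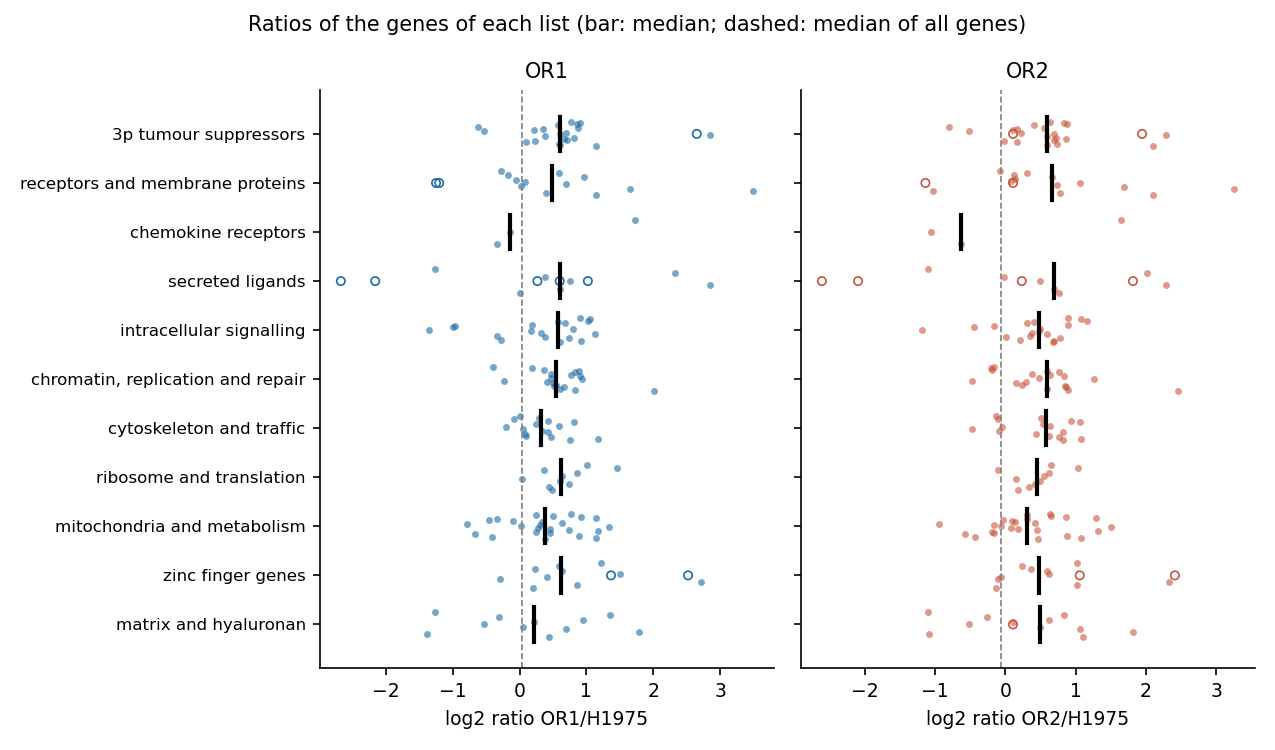
Log2 ratio to H1975 of the members on each gene list in OR1 (left) and OR2 (right). Filled points were measured on both arrays, open points are bounds, black bars are list medians and the dashed line is the median of all genes (0.03 in OR1, -0.06 in OR2). The medians of 10 lists lie right of the dashed line in both lines, and that of the 3 chemokine receptors lies left of it (in OR1 at 0.06, right of it, with no background filter). With spike-in scaling the OR1 medians of 6 of the 10 lists fall below 0.

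The largest falls outside the lists were FAM107A, an actin-associated protein, with an intensity of 126 in H1975 against 23.7 for OR1 and 23.2 for OR2 and a ratio of 0.214 for OR1 and 0.179 for OR2, C3orf62, with at most 0.420 and at most 0.439, and the long noncoding RNA lnc-CDC25A-1, with 0.397 and 0.421. With normexp FAM107A had 0.497 and 0.435, C3orf62 0.883 and 0.809, and lnc-CDC25A-1 0.613 and 0.614. Among the 15 largest rises, NICN1, a subunit of tubulin polyglutamylase, had an intensity of 459.9 in H1975 against 1153 for OR1 and 1627 for OR2 and a ratio of 2.86 for OR1 and 3.44 for OR2, or 1.89 for OR1 with spike-in scaling. The others outside the lists were transcripts dim in H1975, namely RBMS3-AS3 with at least 8.20 and at least 6.21, ARIH2OS with at least 3.08 and at least 3.92 and ENST00000440528 with at least 2.98 and at least 2.96. These are lower bounds and have no fixed rank among the rises. With normexp they were 2.07 and 1.72, 1.47 and 1.497, and 1.37 and 1.30. RBMS3-AS3 is antisense to RBMS3, an RNA-binding protein gene that had at least 2.92 and at least 2.78.

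OR1 and OR2 differed little from each other over the stretch. The median log2 ratio of OR1 over OR2 was 0.06 over 316 members well above background in both, and 0.07 over all 19400 such genes. The sign of this median is not settled, since it was -0.03 with median scaling, -0.17 without scaling and -0.61 with spike-in scaling. A ratio of at least 2 was found in 6 members (1.90%), as in 1.90% of all genes, and a ratio of at most 0.5 in 2 (0.633%), against 1.97% of all genes. The small nucleolar RNAs SNORA62 and SNORA6, which guide pseudouridylation of ribosomal RNA, were brighter in OR1, with intensities of 354 in H1975 against 1705 for OR1 and 443 for OR2 for SNORA62 and 564 in H1975 against 3113 for OR1 and 872 for OR2 for SNORA6. Their OR1 to OR2 ratios were 4.51 and 4.18. KRBOX1 had 4.28, NEK10, a NIMA-related kinase gene, 3.17 and LOC729083 2.26. On the other side were lnc-TTC21A-1 with 0.481, ENST00000608605 with 0.494, TRANK1 with 0.510, ENST00000568686 with 0.517 and TGFBR2 with 0.518. Other probes put the resistant lines closer together. Over H1975 they gave 2.14 in OR1 and 2.30 in OR2 for TGFBR2, and 1.29 and 1.49 for TRANK1.

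With the scaling used for the ratios here, the median log2 ratio was positive in each brightness group of the members and in their other probes. With spike-in scaling the median of all members was -0.14 in OR1, and values for these groups are not given. With the 298 members split by mean intensity into 3 equal groups, the median log2 ratio was 0.36, 0.54 and 0.49 in OR1 and 0.41, 0.52 and 0.41 in OR2, from dim to bright. The 73 other measured probes of members, which were not used to choose them, had a median of 0.56 for OR1 and 0.51 for OR2, and 63 and 59 of them lay on the same side of 1 as the brightest probe. They read the same RNA samples, come from genes of the chosen stretch and are not replicates. The brightness groups likewise split the ratios by which the stretch was chosen. Without matching values for all genes, neither set of medians is support for the shift. Split by the GC content of the probes, the medians were 0.54, 0.42 and 0.39 in OR1 and 0.62, 0.41 and 0.28 in OR2, from low to high, and the part of GC content was not tested beyond removal of its trend, after which the members' medians were 0.45 and 0.42.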

How the data were processed

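Gene expression was measured in H1975, OR1 and OR2 with 1 Agilent single-color array each, and each array was mapped to its line by its label. The deposited scanner files hold the intensity of each spot after background correction by the authors' Agilent Feature Extraction software, version 10.7.1.1 per the file headers and 9.5.1.1 in the submitters' processing notes. A second deposited table holds the authors' normalized intensity of each probe, by a method not given in the sources used here, and served as an alternative. Control spots and outlier spots (45, 61 and 46) were left out, and no spot was saturated. Repeated spots of a probe were averaged as log2 intensities, from which each array's 75th percentile was subtracted. Ratios of 1 array to 1 array were computed over all 22439 genes, and 2 and 0.5 were the limits, after the methods. Bounds rest on the dimmest spot called well above background, at 12.0 (H1975), 10.3 (OR1) and 12.6 (OR2).

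The members, gene lists and alternatives were chosen with earlier results of these data known. Named were CDCP1 and CTNNB1, the 15 largest rises and 10 largest falls by the less changed line, the 5 largest OR1 to OR2 differences each way, the highest and lowest member of each list, the genes at the edges and the brightest 3. Further list members are named as examples, and 1 of the falls is not reported here. Of the members, 274 were matched to the RefSeq table, 17 under another symbol. The alternatives were 4 scalings, normexp with an offset of 50, the authors' table, other filters on background, outlier spots and annotation, other ways to treat several probes of a gene, GC trend removal, other limits of the stretch, other ratios, and limma with both resistant lines as 2 samples of 1 group. Scripts were tested on simulated data. The tools were R 4.3.3 with limma 3.58.1, and Python 3.11.15 with pandas 2.3.3, scipy 1.17.1 and numpy 2.4.6.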

Additional observations from a re-analysis of the deposited data

Results flagged for a closer look

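Over 13 members well above background on all 3 arrays (4.36%, against 3.77% of all such genes), OR1 and OR2 lay on opposite sides of H1975, each by more than the technical SD of its ratio. No test of OR1 against OR2 was possible for them, so the difference was not tested, since each line has 1 array. Lower than H1975 in OR1 and higher in OR2 were TRANK1 with 0.645 in OR1 and 1.26 in OR2, MYD88, the adaptor of Toll-like receptors, with 0.826 and 1.16, SNRK, an AMPK-related kinase, with 0.788 and 1.27, ALS2CL with 0.779 and 1.24, LAMB2P1, a laminin pseudogene, with 0.846 and 1.35, UBA7, the activating enzyme of ISG15, with 0.726 and 1.19, and CHDH, choline dehydrogenase, with 0.795 and 1.23. The reverse was seen for lnc-ZNF852-2 with 1.31 in OR1 and 0.836 in OR2, NBEAL2 with 1.27 and 0.771, lnc-CCDC51-1 with 1.79 and 0.856, SLC38A3, an amino acid transporter, with 1.27 and 0.830, NT5DC2 with 1.59 and 0.845, and TMEM110 with 1.21 and 0.763. For TRANK1, a further probe gave 1.29 in OR1 and 1.49 in OR2, so that its lower value in OR1 rests on the brightest probe. The other CHDH probe was below 1 in both lines, at 0.5723 and 0.9725. That of lnc-ZNF852-2 gave at least 1.39 in OR2, against 0.836. Other probes of lnc-CCDC51-1 (1.24 and 0.9334) and SLC38A3 (at least 2.20 in OR1, no ratio in OR2) lay on the reported sides.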

How the results depend on the processing

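No paired analysis was possible because each line has 1 array. The members up-regulated in both lines, 11.4% (39), became 4.11% (14) with spike-in scaling, 3.52% (12) with normexp, 31.4% at a ratio of 1.5, 2.05% (7) at a ratio of 4 and 1.76% (6) by limma with Benjamini-Hochberg adjusted p under 0.05, which takes OR1 and OR2 as 2 samples of a group, has 1 residual degree of freedom and assumes that the lone H1975 array varies like them. The down-regulated, 3.23% (11), became 3.53% (20) with no background filter, 0.587% (2) with normexp, 0.88% (3) at a ratio of 4, 1.68% (5) with genes well above background on all 3 arrays and 0.293% (1) by limma. Over all 22439 genes limma called 208 higher and 379 lower, and as the members were picked for their ratios its counts for them are no evidence. The share above 1 in both lines, 70.5%, became 53.6% with no background filter, 64.8% with no scaling and 39.9% with spike-in scaling. The median log2 ratio became -0.14 in OR1 with spike-in scaling, 0.25 in OR1 with no background filter, 0.26 in OR1 with no scaling and 0.17 in OR2 with no background filter, and that of OR1 over OR2 became -0.17 with no scaling and -0.61 with spike-in scaling. The median of all genes in OR1 was -0.56 with spike-in scaling and -0.16 with no scaling. Relative to all genes, the members stood 0.19 to 0.50 higher in OR1 and 0.20 to 0.51 in OR2 under the alternatives. For other limits of the stretch this difference was not computed. Median scaling, spike-in scaling and no scaling cannot change it. Of 1258 values of named genes, 161 moved (normexp accounted for 57 and spike-in scaling for 44) and 19 lay on the other side of 1 from the reported ratio, 0 of them for a ratio past 2 or 0.5. These were values of CTNNB1, GPX1, MAP4, QARS, RPL15, TRANK1, ZDHHC3 and lnc-TTC21A-1. Past the ratios in both lines stayed 9 of the 15 largest rises and 2 of the 9 falls named with normexp, and 13 of the rises with spike-in scaling. Of the 9 falls, 8 stayed in the values normalized by the authors, COL7A1 being at the limit in OR2. The causes were not tested. Signal over background limits the ratios of dim spots, and 34 members were not well above background in H1975.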

Other observations

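Antisense and opposite-strand transcripts form a group of the stretch. Of 17 such members, 5 were up-regulated in both lines and 0 were down-regulated, against 5.17% and 6.46% of all genes. Of the 10 on all 3 arrays, 9 were above 1 in both, against 38.2% of all genes so measured. Of the 5, RBMS3-AS3, THRB-AS1 and ARIH2OS were dim in H1975 and became members only through the resistant lines. ITGA9-AS1 had 2.60 and 2.50, and its other probes gave 0.88 and 0.73, and 2.03 and 2.44. The 15 pairs in which both transcripts were members did not all go together. RBMS3-AS3 and RBMS3 were both up-regulated, as were THRB-AS1, with a ratio of at least 2.09 for OR1 and at least 2.35 for OR2, and THRB. By contrast ENTPD3-AS1 had 1.19 and 1.12 and VIPR1-AS1 had 1.07 and 1.002, beside lower ENTPD3 and VIPR1. SEMA3B-AS1 had 2.34 and 2.10, above SEMA3B. Long noncoding RNAs with lnc names had 10 of 21 (47.6%) above 1 in both lines, against 38.2% of all genes on all 3 arrays.

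Small nucleolar RNAs guide modification of ribosomal RNA, and 5 were members. SNORA6 and SNORA62 are described above, SNORD69 had 2.63 and 1.93 and SNORD19 had 2.31 and 1.48, in each case with the higher ratio in OR1. Over the measured ones the median log2 ratio was 1.93 in OR1 and 0.58 in OR2.

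Over RefSeq mRNAs alone, 31 of 257 members were up-regulated in both lines and 10 were down-regulated, against 5.17% and 6.46% of all genes. Their median log2 ratios were 0.50 in OR1 and 0.46 in OR2, against 0.003 and -0.032 over all RefSeq mRNA genes. Of those on all 3 arrays, 171 of 233 (73.4%) were above 1 in both, against 38.2% of all genes. These shares were not computed over all RefSeq mRNA genes. Of the stretch's tumour suppressor genes, FHIT, RARB, DLEC1 and CACNA2D2 had no probe well above background in any line, so that no ratio exists for them.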
